A study of Mus musculus with 8 samples.

Results

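The circadian clock of mammalian cells is a transcriptional loop, and the genes described here are its negative limb. The set holds Ciart, Bhlhe40, Bhlhe41, Per1, Per2, Per3, Cry1, Cry2, Nr1d1 and Nr1d2, which are 10 of the 20254 genes in the deposited table. They were taken by name, and the set was chosen by their levels in mutant against control libraries of this study, so the differences between the groups below are a description and are not offered as a test of the set. All 10 genes passed the filter on low values.

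RNA sequencing of polyadenylated transcripts was done on nephron progenitor cells, the cap mesenchyme cells of the embryonic kidney that form the epithelium of the nephron. Cells were sorted by GFP from kidneys at embryonic day 17.5. All 8 libraries carry the Six2EGFPcre transgene, in which the nephron progenitor gene Six2 drives a fusion of GFP and Cre recombinase, so the sort and the deletion use the same promoter. The 4 control libraries have the genotype VHLNP+/- and the 4 mutant libraries VHLNP-/-, so the controls are heterozygous for the deleted Vhl allele and no library without a deleted allele was analysed here. Vhl encodes the ubiquitin ligase subunit that marks hypoxia-inducible factors (HIF) for destruction in oxygen. The comparison asks which transcripts differ when the second allele is lost as well. The labels do not say whether each library is a separate embryo, so the spread between them may be technical. They also give no time of day of collection.

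In the clock loop, CLOCK or NPAS2 pairs with BMAL1 (the product of Arntl) and activates genes that carry an E-box, the letters CACGTG. Among these genes are the Per and Cry genes, whose proteins return to the nucleus and silence the activators, the basic helix-loop-helix repressors Bhlhe40 and Bhlhe41 (DEC1 and DEC2), which compete for E-boxes, and Ciart (CHRONO), which binds BMAL1 and represses it. Nr1d1 and Nr1d2 encode the nuclear receptors REV-ERB alpha and beta, which repress Arntl in opposition to the activating ROR receptors. Outside the clock, Bhlhe40 and Bhlhe41 are known hypoxia-inducible genes, and HIF binds a core of A or G followed by CGTG, whose first form, ACGTG, lies inside the E-box.

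Because both kinds of site can be read from sequence, the promoters of 5 members are shown first. Ciart, Bhlhe41 and Per1 have an E-box in the window searched (defined below) and were called higher in mutants. Cry1 has an E-box there and was not called. Nr1d1 has none there and had nearly equal group means. Cry2, Per3 and Nr1d2 also have none there and are not shown, although Cry2 was called higher. Each promoter shown is the 250 bases before the start of the gene in RefSeq (GRCm38.p6), written 5′ to 3′ on the strand of the gene. Capitals mark ACGTG or GCGTG on either strand, so that an E-box appears as CACGTG and a match on the other strand as CACGT or CACGC. The regions are chr3:95882229-95882478 (minus strand) for Ciart, chr6:145865421-145865670 (minus) for Bhlhe41, chr11:69098699-69098948 (plus) for the upstream start of Per1, chr10:85185055-85185304 (minus) for Cry1 and chr11:98775378-98775627 (minus) for Nr1d1.
Ciart: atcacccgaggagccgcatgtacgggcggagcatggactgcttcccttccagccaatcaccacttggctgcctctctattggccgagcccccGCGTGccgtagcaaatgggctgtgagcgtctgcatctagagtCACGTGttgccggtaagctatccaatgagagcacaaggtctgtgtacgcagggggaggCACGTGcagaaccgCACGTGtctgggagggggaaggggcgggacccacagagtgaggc
Bhlhe41: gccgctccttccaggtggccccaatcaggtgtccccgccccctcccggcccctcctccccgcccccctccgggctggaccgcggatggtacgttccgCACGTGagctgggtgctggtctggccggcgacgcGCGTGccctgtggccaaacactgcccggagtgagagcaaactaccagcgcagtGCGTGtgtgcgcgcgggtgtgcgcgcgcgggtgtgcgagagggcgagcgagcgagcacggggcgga
Per1: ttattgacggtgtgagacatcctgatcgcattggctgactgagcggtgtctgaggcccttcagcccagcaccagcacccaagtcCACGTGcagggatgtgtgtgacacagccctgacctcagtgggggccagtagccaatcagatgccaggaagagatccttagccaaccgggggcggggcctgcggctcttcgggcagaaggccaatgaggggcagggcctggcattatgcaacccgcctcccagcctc
Cry1: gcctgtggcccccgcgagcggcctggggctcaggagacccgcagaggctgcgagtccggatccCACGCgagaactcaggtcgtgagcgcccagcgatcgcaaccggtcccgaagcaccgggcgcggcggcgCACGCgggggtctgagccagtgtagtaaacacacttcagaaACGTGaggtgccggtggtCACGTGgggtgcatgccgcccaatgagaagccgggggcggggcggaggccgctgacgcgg
Nr1d1: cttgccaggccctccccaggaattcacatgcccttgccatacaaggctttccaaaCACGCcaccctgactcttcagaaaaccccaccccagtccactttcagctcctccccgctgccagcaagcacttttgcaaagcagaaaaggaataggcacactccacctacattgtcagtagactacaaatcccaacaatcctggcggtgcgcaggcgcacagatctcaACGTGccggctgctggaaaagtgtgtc

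RefSeq promoters were at hand for 8 of the 10 members, with 9 windows in all because Per1 has 2 starts. Each window searched was 300 bases long, 250 before the start and 50 after it, and both strands were read. The Ciart window held 3 E-boxes, whose first bases lie 116, 58 and 44 bases before the start. At least 3 E-boxes were found in 29 of all 32851 RefSeq windows (0.0883%). Bhlhe41 had 1 E-box (153 bases before the start), Cry1 had 1 (60 bases) and the upstream window of Per1 had 1 (166 bases). Of all windows, 7.15% held at least 1. Cry2, which was called higher, had no E-box in its window, nor had the uncalled Per3, Nr1d1 and Nr1d2. The E-box variant CACGTT was present in Cry1, Cry2 and Nr1d1 and in 4.68% of all windows. ACGTG or GCGTG was found in all 8 members with a window, but also in 43.8% of all windows, and each E-box counts as 2 such matches because its letters read the same on both strands. The D-box TTATGTAA, bound by the PAR bZIP factors, occurred 2 times in Per3 and in 0.938% of all windows. The ROR and REV-ERB core (TAGGTCA or TGGGTCA) and the cAMP response element TGACGTCA were not found in any of these members, against 6.45% and 1.79% of windows. These are matches of letters and not measured binding.

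Of the 10 members, 6 were called higher in mutant libraries (Ciart, Bhlhe40, Bhlhe41, Per1, Per2 and Cry2), none was called lower and 4 were not called (Per3, Cry1, Nr1d1 and Nr1d2). A call is a Benjamini-Hochberg adjusted p under 0.05 over 15381 tested genes in limma. Over all tested genes 5.4% were called higher and 3.03% lower. In 8 of the 10 members every mutant library was above every control library, compared with 8.54% of all tested genes, and in none was every mutant library below every control library (6.72%). At least 4-fold higher were 3 called members (Ciart, Bhlhe40 and Bhlhe41), beside 0.41% of all tested genes. The median log2 fold change was 0.31 in the members and -0.01 in all tested genes. The members span a wide range: Ciart had the 11th highest fold change of all tested genes, Bhlhe41 the 20th and Bhlhe40 the 47th, while Per2 stood at 892, Per1 at 1652, Cry2 at 1980, Per3 at 2320, Cry1 at 2740, Nr1d2 at 6466 and Nr1d1 at 7122. Fold changes are on the scale log2(normalised reads + 1), which understates the change of genes with few reads. In bulk libraries, fewer cells of a type and less RNA per cell cannot be told apart.

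**Figure D1:**
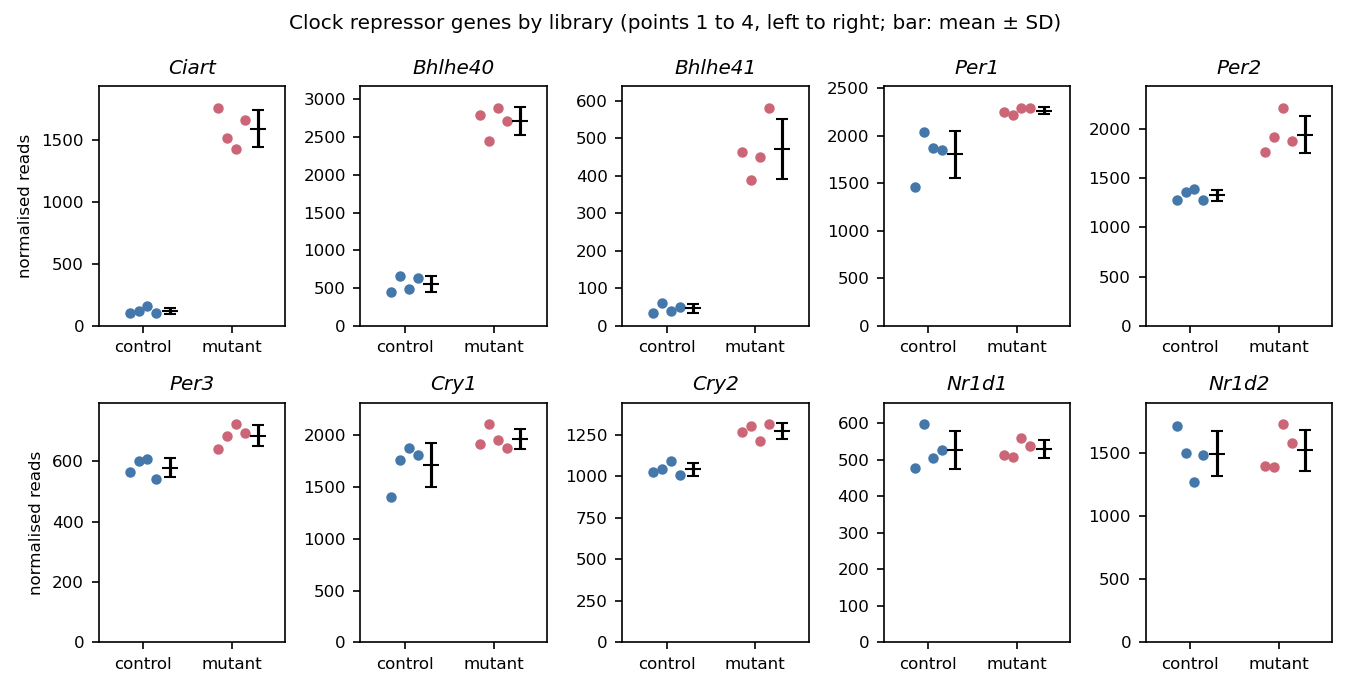
Normalised reads (vertical axes, each from 0) of the 10 clock repressor genes in 4 control and 4 mutant libraries (horizontal axes), one point per library in the order 1 to 4, with bars for the mean ± SD. The groups are far apart for Ciart, Bhlhe40 and Bhlhe41, close but separate for the Per and Cry genes, and overlapping for Nr1d1 and Nr1d2.

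Ciart lies on the minus strand at chr3:95878503-95882251 (GRCm38) and had the largest difference of the set. Its normalised reads (reads divided by the size factor of the library) were 102, 121, 158 and 106 in controls 1 to 4 and 1760, 1518, 1424 and 1663 in mutants 1 to 4. Every mutant library was far above every control library, with control 3 the highest control and mutant 3 the lowest mutant. The means were 121 ± 25.4 and 1591 ± 149 (SD, n = 4 each), a log2 fold change of 3.72 (SE 0.13), or 13.2-fold, with a 95% interval of 10.7 to 16.1. With reads divided by the exon length of each gene, Ciart took 2.81% ± 0.524 of the sum of the 10 members in control libraries. In mutant libraries it took 20.7% ± 1.93 (SD, n = 4 each).

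Bhlhe40 (chr6:108660629-108666925, plus strand) and Bhlhe41 (chr6:145858243-145865558, minus strand) encode closely related repressors. Bhlhe40 had 444, 661, 492 and 641 normalised reads in controls 1 to 4 and 2790, 2450, 2889 and 2715 in mutants 1 to 4. Controls 1 and 3 were the low controls and mutant 2 the low mutant, and the groups did not overlap. The means of 559 ± 108 and 2711 ± 188 (SD, n = 4 each) differ by 2.29 on the log2 scale (SE 0.12), or 4.9-fold, with a 95% interval of 4.05 to 5.93.

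Bhlhe41 was a scarce transcript in controls, with 34.9, 60.9, 39.7 and 50.9 normalised reads in controls 1 to 4. Mutants 1 to 4 had 463, 389, 449 and 581. The lowest mutant, again library 2, was several times above the highest control, library 2. The means were 46.6 ± 11.6 and 470 ± 80.6 (SD, n = 4 each), a log2 fold change of 3.33 (SE 0.19), or 10.02-fold, with a 95% interval of 7.54 to 13.3. Of the summed reads per kilobase of exon of the pair, Bhlhe41 took 5.48% ± 0.392 in control libraries and 10.8% ± 1.5 in mutant libraries (SD, n = 4 each). Every mutant share (9.81% to 13.0%) was above every control share (5.23% to 6.06%).

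The calls of Ciart, Bhlhe40, Bhlhe41 and Per2 stood in all 23 alternative settings. Across these, the log2 fold change was between 3.64 and 3.87 for Ciart, 2.1 and 2.43 for Bhlhe40, 3.13 and 3.55 for Bhlhe41, and 0.48 and 0.59 for Per2.

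The 3 Period genes encode the scaffold of the nuclear repressor complex and were abundant in both groups. Per2 (chr1:91415982-91459324, minus strand) had 1283, 1358, 1392 and 1274 normalised reads in controls and 1768, 1915, 2215 and 1873 in mutants. The controls lay close together, and all mutants were above them, mutant 3 the farthest. The means of 1327 ± 57.6 and 1943 ± 191 (SD, n = 4 each) differ by 0.55 on the log2 scale (SE 0.07), or 1.46-fold, with a 95% interval of 1.31 to 1.63.

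Per1 (chr11:69095217-69109960, plus strand), which is also an immediate response gene to glucocorticoid and cAMP signals, had 1460, 2040, 1870 and 1853 normalised reads in controls. The 4 mutants were nearly equal, at 2254, 2220, 2295 and 2294. Control 1 stood below the other controls, and the groups did not overlap. The means were 1806 ± 246 and 2266 ± 36.0 (SD, n = 4 each), a log2 fold change of 0.34 (SE 0.09), or 1.26-fold, with a 95% interval of 1.1 to 1.45. This call depended on single libraries and settings: it was lost without control 3 (limma adjusted p = 0.0575), control 4 (0.0781), mutant 1 (0.0654), mutant 2 (0.0714), mutant 3 (0.0926) or mutant 4 (0.11), and stood in 11 of the 23 alternatives.

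Per3 (chr4:151003652-151044665, minus strand) was the least abundant Period gene, with 565, 601, 609 and 542 normalised reads in controls and 642, 684, 723 and 694 in mutants. The groups did not overlap, with control 3 just below mutant 1, but the gene was not called. Its means of 579 ± 31.6 and 686 ± 33.3 (SD, n = 4 each) differ by 0.24 on the log2 scale (SE 0.07), with a 95% interval of 1.06- to 1.32-fold. In the authors' deposited table Per3 was called as well (log2 fold change 0.24, SE 0.08, adjusted p = 0.0278), so that 7 of the 10 members were called higher there and none lower, beside 7.12% and 5.35% of 15144 genes. Of the summed reads per kilobase of exon of the Period genes, Per1 made up 48.3% to 55.2% in controls and 47.3% to 52.0% in mutants. Per2 made up 35.3% to 40.8% and 39.3% to 43.9%, so these shares overlapped. The share of Per3 was lower in every mutant (8.69% to 9.03%) than in any control (9.35% to 10.9%), although its own level was higher.

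The cryptochromes are the partners of the Period proteins in the repressor complex, and they differed less. Cry2 (chr2:92403646-92434043, minus strand) had 1027, 1043, 1094 and 1005 normalised reads in controls and 1265, 1304, 1212 and 1313 in mutants. The libraries of each group were tight, and no mutant came near a control. The means of 1042 ± 37.8 and 1273 ± 45.8 (SD, n = 4 each) differ by 0.29 on the log2 scale (SE 0.06), or 1.22-fold, with a 95% interval of 1.12 to 1.33. The call stood in 19 of 23 alternatives and was lost when controls 1 and 3 and mutant 2 were left out together (limma adjusted p = 0.0501) and when control 2 and mutant 2 were (0.0792).

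Cry1 (chr10:85131700-85185064, minus strand) had 1401, 1760, 1874 and 1801 normalised reads in controls and 1907, 2101, 1953 and 1877 in mutants. The groups were separate by a narrow margin, between control 3 and mutant 4, and control 1 was the low library. The means of 1709 ± 211 and 1959 ± 99.7 (SD, n = 4 each) differ by 0.20 on the log2 scale (SE 0.09), with a 95% interval of 1.01- to 1.32-fold. Cry1 was not called, here or under any alternative. Of the summed cryptochrome reads per kilobase of exon, it kept 75.5% ± 2.3 in controls against 74.4% ± 1.11 in mutants (SD, n = 4 each).

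The REV-ERB genes were the members with the smallest differences. Nr1d1 (chr11:98767932-98775333, minus strand) had 477, 597, 505 and 528 normalised reads in controls and 514, 507, 559 and 537 in mutants. Nr1d2 (chr14:18204054-18239127, minus strand) had 1714, 1502, 1276 and 1489 in controls and 1396, 1393, 1730 and 1579 in mutants. In both genes the groups overlapped almost wholly. The means were 527 ± 51.1 and 529 ± 23.3 for Nr1d1, and 1495 ± 179 and 1524 ± 162 for Nr1d2 (SD, n = 4 each). The 95% interval of the log2 fold change was -0.18 to 0.20 for Nr1d1 and -0.18 to 0.24 for Nr1d2, which leaves room for a difference of that size in either direction.

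Some members share ground with other genes, and the sources used here do not state if reads were counted by strand. Ciart lies within the span of the antisense gene C920021L13Rik with no shared exon bases, and that gene had 33.8 ± 8.6 and 37.2 ± 9.36 normalised reads (SD, n = 4 each). Nr1d1 shares 263 exon bases with Thra, a thyroid hormone receptor gene on the other strand, whose means were 2623 ± 86.4 and 2621 ± 81.5. Cry2 shares 295 exon bases with D930015M05Rik (21.9 ± 5.2 and 33.1 ± 8.06). Bhlhe40 shares 118 exon bases with 0610040F04Rik (2.01 ± 1.51 and 7.15 ± 2.37, below the filter), and Bhlhe41 shares 1280 exon bases with Gm43909, which is not a row of the table. Per3 lies within the span of Camta1 on the same strand with no shared exon bases. D930015M05Rik and 0610040F04Rik had few reads beside Cry2 and Bhlhe40. C920021L13Rik was nearer to Ciart in controls (33.8 against 121) than in mutants (37.2 against 1591). How reads in shared bases were assigned is not known, so the count of a neighbour does not give the reads from its strand. The share of reads from the other strand was not tested for any of these members.

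To compare the members with each other, normalised reads were divided by the exon length of each gene in GENCODE vM21. In controls the order by level per kilobase was Cry1 (512 ± 63.0), Per1 (321 ± 43.6), Nr1d2 (276 ± 33.0), Per2 (227 ± 9.84), Nr1d1 (171 ± 16.6), Cry2 (165 ± 5.97), Bhlhe40 (119 ± 22.9), Per3 (60.3 ± 3.29), Ciart (53.7 ± 11.2) and Bhlhe41 (6.93 ± 1.73; SD, n = 4 each). Per1 and Nr1d2, Nr1d2 and Per2, Nr1d1 and Cry2, and Per3 and Ciart were neighbours whose libraries overlapped. In mutants Ciart headed the order at 704 ± 66.0 per kilobase, above Cry1 (587 ± 29.8). Their libraries barely cleared each other, with the lowest Ciart library at 630 and the highest Cry1 library at 629. Bhlhe40 was the third at 576 ± 40.0, overlapping Cry1, and Bhlhe41 (57.8 to 86.5) overlapped Per3 at 71.4 ± 3.47 (SD, n = 4 each). In controls Ciart was thus the second lowest of the 10 genes per kilobase and in mutants the highest, and Bhlhe41 was the lowest in both groups. Of the rest, Nr1d2 stood above Per2 and Nr1d1 above Cry2 in controls, and both orders were the other way round in mutants. The libraries of Cry2 and Nr1d1 did not overlap there, while those of Per2 and Nr1d2 did.

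**Figure D2:**
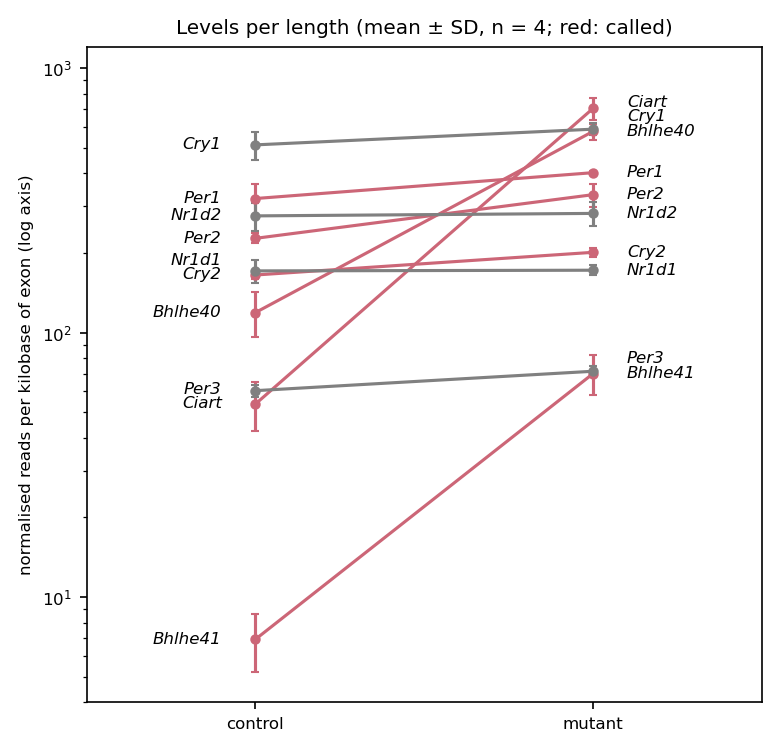
Normalised reads per kilobase of exon (vertical log axis) of the 10 clock repressor genes in controls and mutants (horizontal axis), as mean ± SD of 4 libraries, with called genes in red and others in grey. Ciart goes from 53.7 to 704 and Bhlhe41 from 6.93 to a level beside Per3, while the lines of Nr1d1 and Nr1d2 are nearly flat.

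The rest of the pathway was read from 4 lists of textbook clock genes with 47 members, of which 46 were tested. Of these, 6 were called higher in mutants (beside 5.4% of all tested genes), none lower (3.03%) and 40 were not called. Their median log2 fold change was 0.01. Among the activators, 1 of 6 tested genes was called higher. This was Rora, the ROR receptor that activates Arntl through the sites REV-ERB represses, with 1433, 1317, 1246 and 1259 normalised reads in controls and 3164, 3502, 4427 and 4113 in mutants. All mutants were more than double any control, and the means of 1314 ± 85.4 and 3802 ± 573 (SD, n = 4 each) give a 2.87-fold rise (log2 1.52, SE 0.10, limma adjusted p = 1.86e-06).

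The core activators did not pass the test. Arntl had 382 ± 44.8 normalised reads in control libraries and 460 ± 14.5 in mutant ones (SD, n = 4 each; log2 0.28, SE 0.10, limma adjusted p = 0.111), with every mutant above every control. Clock had 1503 ± 140 and 1502 ± 176 (limma adjusted p = 0.988), with a 95% interval of 0.867 to 1.15 for the fold. Its direction turned under other settings, TMM scaling among them (log2 0.0038). Npas2 was scarce, at 24.7 ± 12.7 and 28.5 ± 9.42 (limma adjusted p = 0.708). Arntl2, a paralog of Arntl that is named here after its values were seen, had 116, 114, 280 and 229 normalised reads in controls and 101, 89.0, 105 and 116 in mutants. Controls 3 and 4 were the high libraries, and mutant 4 overlapped the low controls. The log2 fold change was -0.73 (SE 0.28), which did not pass the test (limma adjusted p = 0.151), while the authors' deposited table calls this gene lower.

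Of 10 output genes, 5 were called higher, beside 5.4% of all tested genes, and none lower (3.03%). Before adjustment (p under 0.05), 6 were higher and 2 lower. In 1 of them every mutant was below every control, against 6.72% of all tested genes. This was Usp2, named here after its values were seen, with 514 ± 38.5 and 448 ± 34.1 (limma adjusted p = 0.202). Nampt, the enzyme of the NAD salvage pathway, went from 3011 ± 91.9 to 5840 ± 210 (1.94-fold, limma adjusted p = 2.77e-07). Nfil3, which represses D-box genes, went from 621 ± 111 to 1026 ± 98.9 (1.67-fold, limma adjusted p = 0.00435), and Tef, which activates them, from 3583 ± 176 to 5049 ± 427 (1.41-fold, 0.000844; SD, n = 4 each). So a repressor and an activator of the same sites were both higher. Hlf, another D-box activator, went from 271 ± 21.7 to 349 ± 32.7 (limma adjusted p = 0.0498), and Ccrn4l, which encodes nocturnin, from 511 ± 65.3 to 651 ± 41.5 (0.0437). Both calls rest on single libraries: leaving out any 1 library put Hlf between 0.0632 and 0.143, and leaving out any 1 except control 3 put Ccrn4l between 0.0724 and 0.125. Dbp, the third D-box activator, had 432 ± 36.1 and 535 ± 67.6 and was not called (limma adjusted p = 0.105; 0.049 without mutant 3).

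None of 14 clock kinases, ubiquitin ligases and their partners and none of 16 co-regulators was called with limma. Before adjustment (p under 0.05), 2 of the kinase and ligase list were higher and 2 lower, and 2 of the co-regulators were higher. The authors' deposited table called 1 of each list higher. The summed level of the kinase and ligase list was 64982 to 68139 normalised reads in controls and 65196 to 68301 in mutants.

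**Figure D3:**
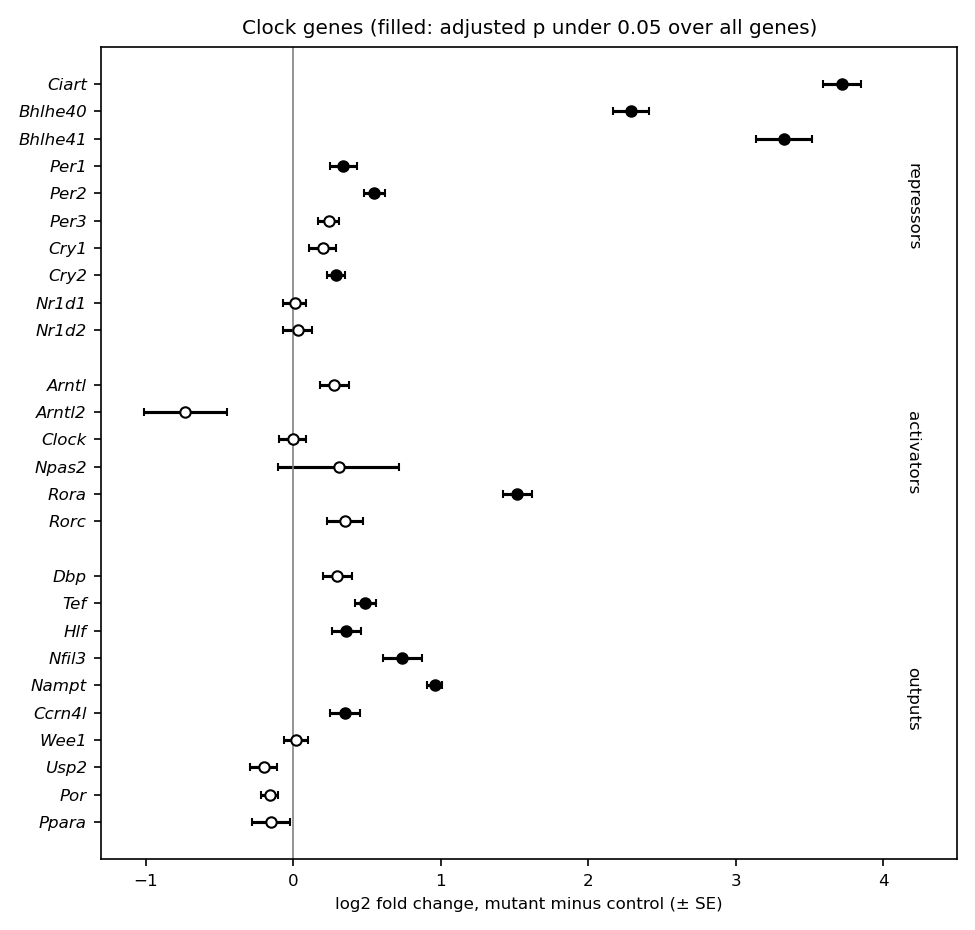
Log2 fold change, mutant minus control (horizontal axis, ± SE), of the repressors and of the tested activators and outputs (vertical axis), with filled points for an adjusted p under 0.05 over all tested genes. Ciart (3.72), Bhlhe41 (3.33), Bhlhe40 (2.29) and Rora (1.52) stand to the right, the uncalled Arntl2 stands to the left (-0.73), and the other points lie between -0.2 and 0.96.

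Per1 and other clock repressors also respond rapidly to stress and hormone signals, so genes of those responses were read in the same libraries. Of 14 immediate early and dissociation genes only Ier3 was called (223 ± 141 and 1419 ± 262 normalised reads, SD, n = 4 each; log2 2.85, SE 0.43, limma adjusted p = 0.0073). Their summed level was 45524 to 105888 in controls and 62492 to 124363 in mutants. For comparison, 5.4% of all tested genes were called higher and 3.03% lower. Of 11 glucocorticoid response genes, Per1, Cdkn1a and Mt1 were called higher, Zbtb16 lower and 7 were not called. None of 8 tested cAMP response genes was called with limma (before adjustment 1 was higher at p under 0.05, and the authors' deposited table calls 1 higher).

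The immediate early level, the mean log2 level of the 13 uncalled genes of that list, varied within groups. It was below the group mean by 0.8 in control 1, 0.58 in control 3 and 0.64 in mutant 2. Bhlhe40 was low in the same 3 libraries: its deviations from the group mean followed the immediate early deviations with Pearson r = 0.94 (exact permutation p = 0.0139, adjusted over 10 genes 0.139) and Spearman rho = 0.93 (exact permutation p = 0.0278, adjusted 0.26) over 8 libraries. Without control 1 and control 4, the libraries farthest from the median, r was 0.90. Permutations were made within groups, 576 arrangements in all. For Bhlhe41 r was 0.73 (exact permutation p = 0.13) and rho 0.81 (exact permutation p = 0.0729). For Nr1d1 r was 0.69 (p = 0.113) and rho 0.74 (p = 0.0868) by the same permutations. Per1 had r = 0.63 (p = 0.0885) and rho = 0.64 (p = 0.104), and Ciart r = -0.09 (p = 0.934) and rho = 0.07 (p = 0.903). None of the 10 relations passed adjustment.

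The differences between the genotypes were also computed with this level as a covariate. The level holds only genes not called in this same comparison, and Ier3 was left out. That choice limits the difference between genotypes that the covariate can carry. The log2 fold change was then 2.18 for Bhlhe40, 3.21 for Bhlhe41, 3.73 for Ciart, 0.55 for Per2 and 0.29 for Per1, which lost its call (limma adjusted p = 0.0554). Without controls 1 and 3 and mutant 2, 4 members were called: Ciart, Bhlhe40, Bhlhe41 and Per2.

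**Figure D4:**
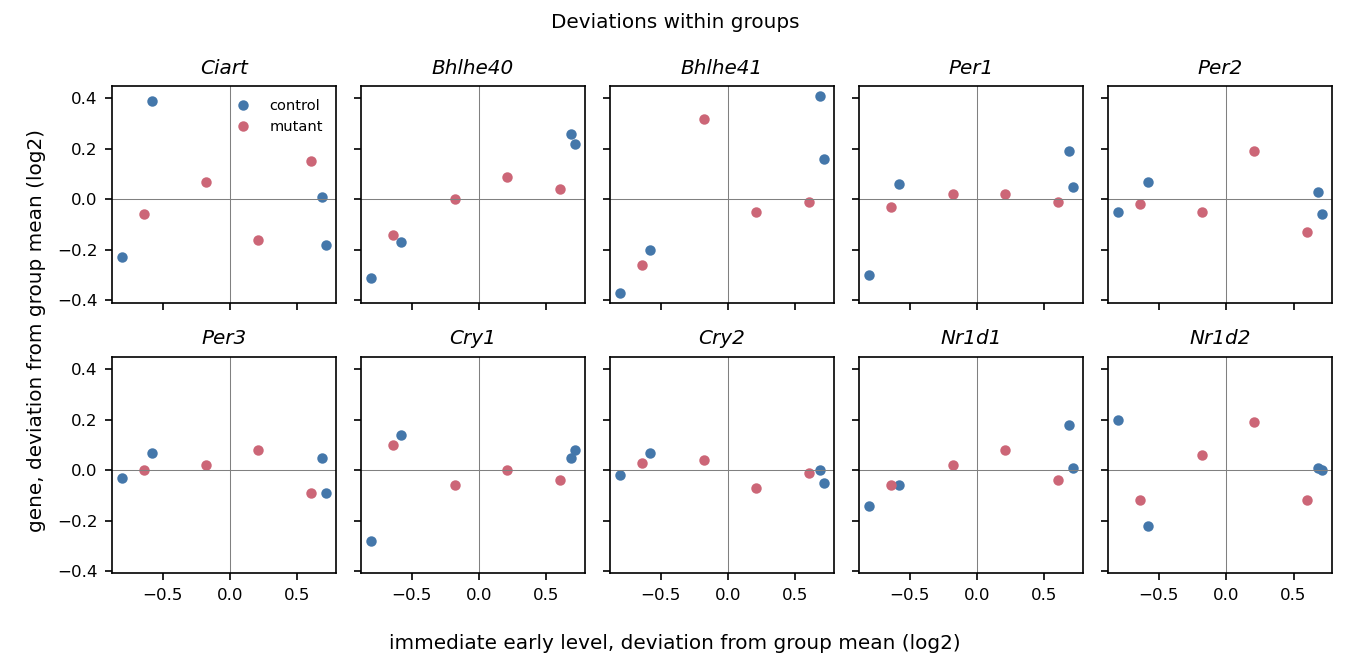
Deviation of each library from its group mean (log2) for each clock repressor (vertical axes) against that of the immediate early level (horizontal axes), with controls in blue and mutants in red. The points of Bhlhe40 follow the immediate early level (r = 0.94), while those of Ciart do not (r = -0.09).

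Among themselves, the deviations of the members within groups were loosely related. Over the 45 pairs Pearson r ranged from -0.78 to 0.86 with a median of 0.26, and 6 pairs had an exact permutation p under 0.05 but none after adjustment over the 45. These p-values are those of r. The highest r were Bhlhe40 with Nr1d1 (r = 0.86, exact permutation p = 0.0226, rho = 0.86), Bhlhe40 with Bhlhe41 (r = 0.84, p = 0.0469, rho = 0.81) and Per2 with Per3 (r = 0.84, p = 0.0174, rho = 0.90). Each of these p-values was 0.312 after adjustment. Without the libraries farthest from the median these 3 values of r were 0.66, 0.64 and 0.83. Control 1 was low in Bhlhe40 (-0.31), Bhlhe41 (-0.37), Per1 (-0.30) and Cry1 (-0.28) but not in Nr1d2 (0.20), while control 3 was high in Ciart (0.39).

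By Pearson correlation of log2 levels over the 8 libraries, the tested genes outside the set most like Ciart were Plekha2 (0.9986), Slc2a1 (0.9981), Prelid2 (0.998), Pfkfb3 (0.9978) and Fam162a (0.9978). These coefficients mostly reflect the gap between the 2 groups, which all of these genes share. Pfkfb3 had 876 ± 131 normalised reads in controls and 7545 ± 350 in mutants, and Slc2a1 3277 ± 498 and 11911 ± 879 (SD, n = 4 each).

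The libraries held 37.3 to 46.5 M (mega) reads in the genes of the table. Vhl itself had 1225 ± 107 normalised reads in control libraries and 318 ± 23.2 in mutant ones (SD, n = 4 each; two-sided exact permutation p = 0.0286, the smallest that 70 relabellings can give). Six2 (25540 ± 2810 and 24101 ± 2210) and Cited1 (2951 ± 348 and 2792 ± 384), which mark nephron progenitors, were high in every library and not called (limma adjusted p = 0.647 and 0.706). Of 12 nephron progenitor markers, Gdnf was called higher and Osr1, Meox1 and Tmem100 lower. Over all tested genes 5.4% were called higher and 3.03% lower. Of markers of other cell types, 1 of 8 for endothelium (Plvap) was called higher. None was called of 8 for stroma, 6 for leukocytes, 8 for the ureteric bud, 7 for maturing tubule and 1 tested for erythroid cells, and no gene of these lists was at 0 in all libraries. The summed marker levels overlapped between the groups in each of these lists, for instance 1347 to 2508 in controls and 1801 to 2402 in mutants for endothelium. Their part in the clock gene differences was not tested.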

How the data were processed

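Polyadenylated RNA of sorted nephron progenitors was sequenced from 4 control and 4 mutant libraries, grouped by the genotype in their labels. The labels' protocols name a stranded library kit. The submitters' processing notes list STAR 2.5.3a, DESeq2 1.18.1 and, as the build, mm10. Neither the read counter nor the gene annotation is named in those sources, and use of strand in counting is not given either. The deposited signal per library is reads per gene divided by size factors, per the file headers and the values. The values show a second division with the 8 factors recycled down the genes and rounding. Both were undone: whole reads rebuilt the deposited mean within a relative tolerance of 1e-09 for 20254 of 20254 genes. The authors' log2 fold changes and p-values (DESeq2 columns, per the file headers) served as an alternative. The score in the deposited table was left aside.

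Normalised reads (whole reads over the size factor), for genes with at least 10 in at least 4 libraries, were compared as log2(value + 1) with limma 3.58.1 in R 4.3.3 (moderated variances with trend and robust settings, no covariate, two-sided, Benjamini-Hochberg). The fit was tested on simulated data. The totals were 37.3 to 46.5 M reads per library, so the spread between libraries limits precision for all but scarce genes. Gene spans and exon lengths come from GENCODE vM21 (GRCm38, the build mm10) and promoters from RefSeq; promoters of Per2 and Bhlhe40 and the proteins are not analysed here. Symbols were matched by name, and Noct was read as Ccrn4l, its older name.

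The members and the lists were chosen with earlier results of these data known. The named genes are the 10 members; Vhl, Six2 and Cited1; Arntl, Clock, Npas2, Rora, Dbp, Tef, Hlf and Nfil3; other called genes of the clock lists; genes overlapping a member on the other strand; the 5 genes most correlated with Ciart; and called genes of the immediate early, glucocorticoid and cAMP lists, at most 4 a list. Marker genes named among the called were named after their values were seen, and 1 marker list is not reported here. The 23 alternatives change the pseudocount, filter, fit, scaling or libraries, and 2 of them (the immediate early level as a covariate, and leaving out controls 1 and 3 with mutant 2) were chosen after seeing the data.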

Additional observations from a re-analysis of the deposited data

How the results depend on the processing

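The number of members called stayed between 4 and 7 over the 23 alternatives, and between 5 and 6 when 1 library was left out. Over all tested genes the count of 1297 became 766 with the replicate block, 2996 with library quality weights, 697 with the deposited values as they are, 764 when control 3 and mutant 2 were left out, and 662 without control 2 and mutant 2. It was 774 to 1565 with 1 library left out, lowest without mutant 4 and also low without control 4 (816). Other clock genes called numbered 10 instead of 6 with library quality weights, 9 of them higher, 9 in the authors' deposited table (8 higher), and 4 to 5 with 1 library left out. The cause was not tested. With the replicate block 4 members were called (Per1 and Cry2 lost theirs, both at adjusted p = 0.0654) and, of the other named genes, Hlf, Ccrn4l, Ier3 and Zbtb16 lost theirs. Libraries of the same number did not deviate together (correlations 0.213, -0.143, -0.144 and 0.063), and control 3 correlated best with mutant 2 (0.57). Per1 and Cry2 were also lost with the deposited values (0.186 and 0.0892), and Per3 was gained with quality weights (0.0106).

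Directions turned only in uncalled genes: Nr1d1, Nr1d2, Clock and Thra, which lie near 0, and the scarce Npas2 and C920021L13Rik (0.31 and 0.13 with all libraries). The log2 fold change of Nr1d1 was -0.02 with quality weights, -0.03 with the immediate early covariate, -0.07 without controls 1 and 3 and mutant 2, and -0.04 to 0.07 with 1 library left out. Nr1d2 was -0.0026 without control 3 and mutant 2, and -0.04 to 0.10 with 1 left out. Clock was 0.02 with quality weights, 0.0038 with TMM scaling, 0.05 with the covariate, 0.07 without those 3 libraries, and -0.07 to 0.06 with 1 left out. Thra was 0.01 with quality weights, TMM scaling, the covariate, without control 3 and mutant 2 and without those 3 libraries, and -0.02 to 0.02 with 1 left out. Npas2 was -0.07 to 0.53 and C920021L13Rik -0.02 to 0.30 with 1 left out. The median log2 fold change of all tested genes lay between -0.015 and 0.0 under every setting. The planned edgeR and DESeq2 fits were not run, because the deposited unit is a signal; limma-voom on the rebuilt reads called 6 members.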

Other observations

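Among hormone and stress response genes outside the clock, Cdkn1a, a cell cycle inhibitor, had 1529 ± 212 normalised reads in controls and 2542 ± 194 in mutants (1.67-fold, limma adjusted p = 0.000558). Mt1, a metallothionein, had 212 ± 58.2 and 550 ± 90.4 (2.63-fold, limma adjusted p = 0.00144; SD, n = 4 each). The glucocorticoid target Zbtb16 had 65.3 ± 7.79 and 40.5 ± 5.64 (limma adjusted p = 0.038), and it was the only listed member of that response called lower. Its call stood in 9 of 23 alternatives, and leaving out any 1 library except control 3 put it between 0.0582 and 0.117. The highest and lowest libraries of 72 groups (36 named genes in 2 genotypes) were compared with the rest of their group, and none stood apart by Dixon's criterion.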
